A study of Mus musculus with 47 samples.

Results

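The immediate early transcription genes described here are Fos, Fosb, Jun, Junb, Atf3, Egr1, Egr2, Nr4a1, Ier2 and Dusp1. They were taken by gene symbol from the deposited expression table and make up 10 of its 53697 genes. RNA was measured in cultured forebrain microglia, the resident macrophages of the brain, from mice of 5 APOE genotypes, with or without myelin. The stated questions were how cells with human APOE4 differ from cells with human APOE3 at rest and after an acute myelin challenge. All mice were of the C57BL/6 strain, and all cells were grown in DMEM with 10% fetal bovine serum and antibiotics.

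E4 mice carry human APOE4, and E3 mice human APOE3, in place of both mouse Apoe alleles, in Taconic models. KO mice (Apoe -/-) lack both functional Apoe alleles and Het mice (Apoe +/-) lack 1, in a Jackson Laboratory line. WT mice came from another Jackson Laboratory line. In each genotype some cultures received myelin for 3 h and were collected 21 h later, and the others stayed untreated for 24 h. There were 5 libraries per group, except 4 in each E3 group and 4 in the Het myelin group, 47 in all. The sources used here name no age, sex or culture batch, and nothing states that replicates are separate animals. The p-values therefore measure the spread between libraries, which may be technical.

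Immediate early genes are switched on within minutes of a stimulus, without new protein synthesis, by transcription factors that are already present and are activated through MAP kinases, calcium or cAMP. Many of their products are themselves transcription factors, and the RNAs are short-lived. In microglia and other macrophages these genes respond to inflammatory signals, to phagocytosis and also to the handling of the cells.

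Stretches before a RefSeq transcription start are shown for 6 members because the levels of these members moved in 2 different patterns in the libraries, described further on. Fos, Junb and Nr4a1 followed one pattern, Jun and Dusp1 the other, and Egr2 was highest in WT. The sequences come from RefSeq promoter windows on GRCm38.p6, read 5′ to 3′ on the strand of the gene. Each is the longest run without an annotated exon base in the 200 bases before that start. Those of Nr4a1, Dusp1 and Egr2 lie inside the gene as annotated in GENCODE M21, which begins further upstream. Capitals mark matches to the cAMP response element core TGACG, its palindrome TGACGTCA, the serum response factor CArG box or the EGR sites GCGTGGGCG and GCGGGGGCG, on either strand. The windows are chr12:85473690-85473889 (Fos, plus strand), chr8:84978749-84978948 (Junb, minus), chr15:101266646-101266845 (Nr4a1, plus), chr4:95052223-95052422 (Jun, minus), chr17:26508520-26508672 (Dusp1, minus) and chr10:67537730-67537868 (Egr2, plus, the most downstream of 5 listed starts).
Fos: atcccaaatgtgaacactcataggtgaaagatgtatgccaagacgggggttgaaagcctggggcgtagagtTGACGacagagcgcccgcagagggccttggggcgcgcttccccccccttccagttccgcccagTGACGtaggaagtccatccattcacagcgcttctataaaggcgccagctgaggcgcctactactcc
Junb: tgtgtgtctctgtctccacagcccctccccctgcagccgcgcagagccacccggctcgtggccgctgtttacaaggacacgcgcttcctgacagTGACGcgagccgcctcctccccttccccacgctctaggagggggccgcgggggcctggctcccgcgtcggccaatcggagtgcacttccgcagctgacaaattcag
Nr4a1: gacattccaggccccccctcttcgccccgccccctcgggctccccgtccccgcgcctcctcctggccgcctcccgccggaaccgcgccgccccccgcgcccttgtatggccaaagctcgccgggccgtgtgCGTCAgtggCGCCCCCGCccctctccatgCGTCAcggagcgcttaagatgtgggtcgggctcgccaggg
Jun: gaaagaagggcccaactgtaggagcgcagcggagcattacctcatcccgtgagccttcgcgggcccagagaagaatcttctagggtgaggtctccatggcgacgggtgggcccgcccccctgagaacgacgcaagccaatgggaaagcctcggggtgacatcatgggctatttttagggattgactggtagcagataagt
Dusp1: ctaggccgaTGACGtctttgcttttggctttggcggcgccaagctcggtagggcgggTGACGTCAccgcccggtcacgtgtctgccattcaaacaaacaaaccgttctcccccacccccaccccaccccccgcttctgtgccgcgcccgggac
Egr2: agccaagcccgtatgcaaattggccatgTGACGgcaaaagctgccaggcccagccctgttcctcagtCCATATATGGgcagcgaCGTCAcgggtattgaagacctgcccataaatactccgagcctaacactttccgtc

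Over the 250 bases before the start, 8 of 10 members had an entry (Egr1 and Ier2 did not). The core TGACG was present on either strand in 7 of these 8, all but Jun, against 17.4% of 27025 promoters. It occurred 4 times before Nr4a1, 3 times before Dusp1, counting both strands of the palindrome, and 2 times before Fos and Egr2. TGACGTCA was found before Dusp1 alone, against 1.54% of all promoters. The AP-1 sites TGAGTCA and TGACTCA were in 0 of the 8 windows and in 4.49% of all promoters. A CArG box was found before Egr2, against 1.38%, and an EGR site before Fosb and Nr4a1, against 2.89%. A match is a run of letters, not a bound site, and no match says only that these letters are not in this window.

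Values were deposited in TPM, a transcript abundance per length scaled to a fixed total, so the read depth is unknown. A single non-coding RNA gene, Gm23935, took 69.4% to 99.0% of the TPM, and nuclear protein-coding genes took 0.468% to 27.3%. Each library was therefore rescaled to 1000000 over its nuclear protein-coding genes, and levels are given as scaled TPM. In 4 Het libraries coding genes held under 6% of the TPM. They were left out of all fits, which leaves 43 libraries, with 3 untreated and 2 myelin Het libraries. Mouse Apoe was at 74.8 ± 7.31 scaled TPM in untreated KO and at 57083 ± 6277 in untreated WT (SD, n = 5 each). All 10 microglia markers were detected in every fitted library, with P2ry12 and Tmem119 low at medians of 4.74 and 40.4 scaled TPM. Mog was at 0 in 23 and Cldn5 in 24 of the 43 libraries, but these were the least detected of the oligodendrocyte-lineage and endothelial markers. Cnp and Mbp, of the first list, and Flt1, of the second, were found in every fitted library, at medians of 46.3, 26.4 and 8.02 scaled TPM. The astrocyte marker Gfap ranged from 4.59 to 1493 and the fibroblast marker Col1a1 from 7.81 to 491.

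All members were expressed in every fitted library, and all 10 passed the filter of 5 scaled TPM in at least 4 libraries. For Egr2 only 24 of 43 libraries reached that level, and for Fosb 33. Fos was the most abundant member, with a median of 970.4 scaled TPM, followed by Junb at 742 and Dusp1 at 585. Ier2, Atf3 and Jun had medians of 244, 226 and 134, Nr4a1 and Egr1 of 77.7 and 74.5, and Fosb and Egr2 of 7.40 and 5.59. The ratio of the highest to the lowest library was smallest in Atf3, Fos and Junb, at 2.51, 2.61 and 2.74. It was largest in Dusp1 and Egr1, at 12.9 and 11.1. Junb shares 173 of its 2301 exon bases with Prdx2 on the opposite strand, and Jun shares 232 of 3189 with Junos. The strand setting of the quantification is not given in the sources used here, so reads in these stretches cannot be told apart.

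**Figure D1:**
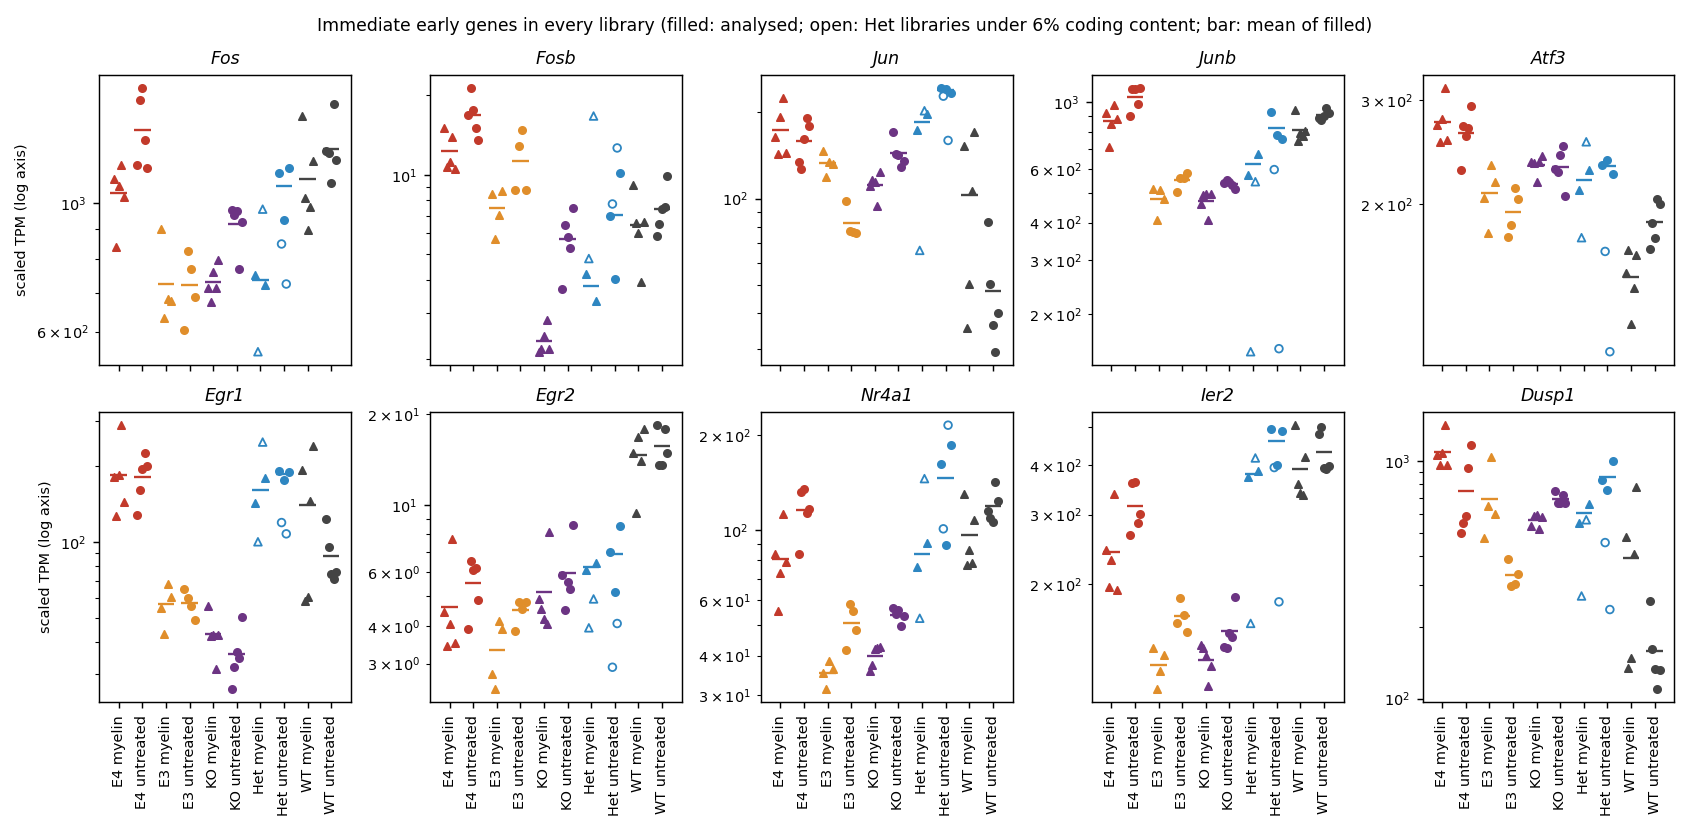
Scaled TPM (log axis) of each member in every library, by genotype and treatment, with triangles for myelin and circles for untreated cultures. Bars are means of the fitted libraries, and open symbols are the 4 Het libraries left out. E4 libraries lie above E3 libraries in most panels, Egr2 is highest in WT, and Jun and Dusp1 are lowest in untreated WT.

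The order of the 10 group means differed between members. Untreated E4 cells had the highest mean of Fos (1337 ± 198 scaled TPM), Junb (1042 ± 95.4) and Fosb (16.9 ± 2.97). E4 cells after myelin had the highest mean of Dusp1 (1095 ± 187) and Atf3 (275 ± 24.0). Untreated Het cells led for Jun (238 ± 4.80), Egr1 (185 ± 8.25), Nr4a1 (146 ± 50.0) and Ier2 (461 ± 51.4), from 3 libraries. Untreated WT cells led for Egr2 (15.6 ± 2.31). Errors are SD, with n = 5 unless stated. Most neighbours in these orders overlapped. Of 9 neighbouring pairs per gene, the libraries lay apart in 2 for Fosb and Ier2, in 0 for Nr4a1 and in 1 for each other member.

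The comparison of E4 with E3 cells addresses the main question of the study. E4 and E3 are different Taconic models, and the sources used here name no culture batch. The APOE allele, mouse line and culture batch therefore cannot be told apart in it. In untreated cultures all 10 members had a higher mean in E4, and 9 rose past the test, Egr2 being the exception. In the limma fit over all 10510 tested genes, 8.03% of genes were called higher and 8.85% lower. The median log2 fold change was 0.92 over the members and 0.02 over all tested genes. Every E4 library lay above every E3 library for 8 members, a separation in either direction that 15.3% of tested genes showed, beside 16.9% of genes called. Coding genes held 12.1% ± 3.24 of the TPM in untreated E4 (SD, n = 5) and 13.6% ± 2.33 in untreated E3 (n = 4). In bulk RNA, fewer cells of a type and less RNA per cell cannot be told apart. Log2 fold changes below are differences of mean log2(scaled TPM + 1) with their SE, and adjusted p-values come from limma, adjusted by Benjamini-Hochberg over every tested gene.

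Fos and Fosb encode partners of the Jun proteins in the AP-1 transcription factor. Fos was at 1162, 1506, 1581, 1286 and 1150.2 scaled TPM in untreated E4 libraries, against 605, 826, 769 and 688 in untreated E3 libraries. The groups lay apart, and the log2 fold change was 0.89 ± 0.12 (adjusted p = 1.2e-06). Fosb was at 16.8, 21.4, 17.6, 15.1 and 13.5 in E4 and 8.73, 12.8, 14.8 and 8.72 in E3, with 1 E3 library above 1 E4 library. Its log2 fold change of 0.56 ± 0.19 (adjusted p = 0.0419) came closest to the threshold. The call was lost without untreated E4 replicate 1, 2 or 3 or untreated E3 replicate 1 or 4, at adjusted p from 0.0545 to 0.163 in limma, and also with a pseudocount of 0.25 (0.0568) or without the filter on low values (0.0647).

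Jun and Junb encode AP-1 subunits that form dimers with Fos proteins, Jun being the stronger activator and Junb often restraining it. Jun was at 134, 127, 161, 190.2 and 179 scaled TPM in untreated E4 and 98.2, 77.3, 76.8 and 75.9 in untreated E3, a log2 fold change of 0.93 ± 0.27 (adjusted p = 0.0127). Junb was at 901, 1103, 1106, 985 and 1117 in E4 and 504, 560.0, 562 and 583 in E3, a log2 fold change of 0.91 ± 0.08 (adjusted p = 4.22e-10). In both genes all E4 libraries exceeded all E3 libraries, and for Junb the gap between the groups was wider than the spread of either. Atf3, a stress-induced factor of the ATF family that can pair with Jun proteins, was at 228, 271, 260.3, 269 and 293 in E4 and 176, 184, 213 and 204 in E3. These groups lay apart by less, with a log2 fold change of 0.44 ± 0.08 (adjusted p = 0.000158).

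Egr1 and Egr2 encode zinc finger factors that bind the same GC-rich site, Egr2 being linked to macrophage activation and to myelination in Schwann cells. Egr1 was at 128, 161, 195, 225 and 199 scaled TPM in untreated E4, against 64.9, 59.7, 56.0 and 49.1 in untreated E3. It had the largest difference of the members, a log2 fold change of 1.62 ± 0.28 (adjusted p = 4.36e-05). Egr2 was at 3.89, 6.52, 6.12, 6.21 and 4.85 in E4 and 3.85, 4.80, 4.55 and 4.81 in E3, where the groups overlapped, and its log2 fold change was 0.23 ± 0.19 (adjusted p = 0.455). Nr4a1 encodes an orphan nuclear receptor that limits inflammatory gene expression in macrophages. It was at 83.8, 132, 135, 113 and 116 in E4 and 41.6, 58.2, 55.5 and 48.3 in E3, with no overlap and a log2 fold change of 1.16 ± 0.17 (adjusted p = 3.2e-06).

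Ier2, a nuclear protein whose gene responds to serum and growth factors, was at 267, 362, 364, 286 and 300.4 scaled TPM in untreated E4, against 159.7, 185, 167 and 151 in untreated E3. The groups lay apart, with a log2 fold change of 0.92 ± 0.13 (adjusted p = 2.43e-06). Dusp1 encodes a nuclear phosphatase that inactivates the MAP kinases p38 and JNK and so ends the signal that induces it. It was at 499, 547, 585, 936 and 1171 in E4 and 389, 297, 305 and 334 in E3. All E4 libraries exceeded all E3 libraries, but E4 replicates 4 and 5 stood well above the other E4 libraries. The log2 fold change was 1.10 ± 0.31 (adjusted p = 0.0106). With the 4 left-out Het libraries put back unweighted, Junb, Dusp1 and Fosb missed the threshold, at adjusted p of 0.0506, 0.0526 and 0.234 in limma.

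After myelin the same comparison gave 7 members higher in E4 and 0 lower, with 6.35% of tested genes called higher and 5.22% lower. The median log2 fold change was 0.68 over members and 0.01 over all tested genes. The libraries of 6 members did not overlap, against 11.8% of tested genes and 11.6% called. Egr1 was at 181, 126, 184, 289.7 and 144 scaled TPM in E4 after myelin and 54.6, 43.1, 67.9 and 60.8 in E3 after myelin, a log2 fold change of 1.65 ± 0.28 (adjusted p = 6.14e-05). Junb was at 919, 711, 849, 982 and 877 in E4 and 518, 408, 514 and 478 in E3, a log2 fold change of 0.85 ± 0.08 (adjusted p = 4.76e-09). Both pairs of groups lay apart by a wide margin. Astrocyte marker sums were 1397 to 2977 in E4 and 899 to 1086 in E3 after myelin, and fibroblast and pericyte sums 233 to 315 in E4 and 379 to 553 in E3, both without overlap, and their part was not tested.

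Nr4a1 was at 83.8, 55.6, 73.2, 112 and 79.1 scaled TPM in E4 after myelin, against 35.3, 31.3, 38.4 and 36.4 in E3, with a log2 fold change of 1.14 ± 0.17 (adjusted p = 7.82e-06). Ier2 was at 244, 196, 231, 339 and 194 in E4 and 138, 108, 121 and 132 in E3, a log2 fold change of 0.92 ± 0.13 (adjusted p = 4.1e-06). Both genes lay apart between the groups. Fos was at 1099.6, 839, 1068, 1162 and 1025 in E4 and 903, 632, 682 and 677 in E3, where 1 E3 library lay inside the E4 range, and its log2 fold change was 0.53 ± 0.12 (adjusted p = 0.00205). Atf3 rose by 0.40 ± 0.08 (adjusted p = 0.000736) on the log2 scale, at 255 to 315 in E4 and 179 to 233 in E3. Fosb rose by 0.65 ± 0.19 (adjusted p = 0.0242), at 10.5 to 15.0 in E4 and 5.73 to 8.70 in E3, with no overlap in either gene. Fosb missed the threshold without E4 myelin replicate 1 or 4 or E3 myelin replicate 2, at adjusted p from 0.0542 to 0.122 in limma, and Atf3, Junb and Fosb missed it with all 47 libraries unweighted (0.092, 0.0931 and 0.175).

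Jun, Dusp1 and Egr2 did not pass the test after myelin. Jun was at 164, 142, 192, 224 and 145 scaled TPM in E4 and 146, 119, 134 and 132 in E3, a log2 fold change of 0.36 ± 0.27 (adjusted p = 0.449). Dusp1 was at 1058, 962, 1077, 1416 and 964 in E4 and 476, 648, 1043 and 596 in E3, a log2 fold change of 0.71 ± 0.31 (adjusted p = 0.143). E3 replicate 3 lay inside the E4 range of Dusp1, and E3 replicate 1 inside that of Jun. Egr2 was at 3.44 to 7.71 in E4 and 2.47 to 4.14 in E3, a log2 fold change of 0.35 ± 0.19 (adjusted p = 0.271). The difference between the E4 and E3 effects of myelin was itself tested, and limma called 0 members and 0 of 10510 genes. At an unadjusted p under 0.05 there were 1 member, Fos, and 427 genes, and the fit of all 47 libraries with library weights called 40. The largest such difference among the members was -0.57 ± 0.38 (adjusted p = 1) in Jun.

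**Figure D2:**
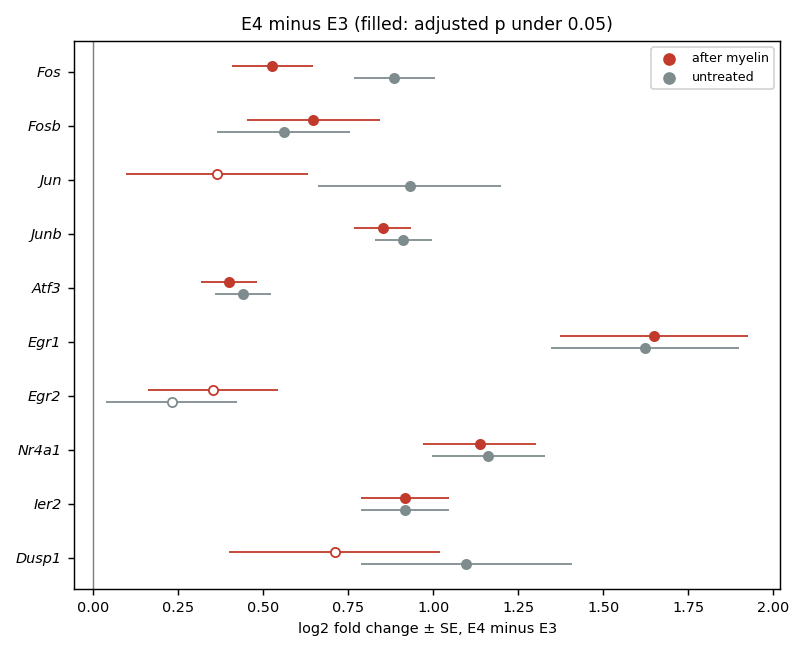
Log2 fold change of each member, E4 minus E3, with SE, after myelin and in untreated cultures. Filled symbols passed an adjusted p of 0.05 in limma. All points lie to the right of 0, with Egr1 farthest and Egr2 nearest in untreated cultures.

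Further genes of the same pathways were counted in lists, whose makeup was chosen with earlier results of these data known. Of 25 tested further immediate early and AP-1 genes, 5 were called higher and 5 lower in untreated E4 than in untreated E3, with a median log2 fold change of 0.14. Gadd45b, a stress sensor that acts on MAP kinase signalling, rose by 1.07 ± 0.12 (adjusted p = 1.86e-08), and Btg2, an antiproliferative early gene, by 0.77 ± 0.14 (adjusted p = 9.96e-05). Atf4, the main factor of the integrated stress response, changed by -0.41 ± 0.07 (adjusted p = 2.73e-05). Of 15 genes that feed back on MAP kinases or on immediate early RNA, 4 were higher and 0 lower, with a median of 0.15. These included the RNA-decay factors Zfp36 at 0.81 ± 0.10 (adjusted p = 9.49e-08) and Zfp36l1 at 0.80 ± 0.11 (adjusted p = 2.92e-06), and the phosphatase gene Dusp2 at 1.89 ± 0.26 (adjusted p = 2.05e-06).

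The other lists were counted between the same groups, beside the 16.9% of all tested genes called. Of 22 kinases and factors 1 was called, the ribosomal S6 kinase gene Rps6ka1 at 0.49 ± 0.10 (adjusted p = 0.000438), and the median was -0.01. Mapk3, which encodes ERK1, had 0.05 ± 0.06 (adjusted p = 0.662). Of 12 receptor and adaptor genes 0 were called in limma. Trem2, a lipid receptor of microglia, had 0.24 ± 0.09 (adjusted p = 0.056), and its adaptor Tyrobp 0.11 ± 0.08 (adjusted p = 0.343). Of 16 known AP-1 or EGR target genes 6 were higher and 4 lower, with a median of -0.05. Tnf and Cxcl2, an inflammatory cytokine and a chemokine, rose by 1.33 ± 0.13 (adjusted p = 9.86e-10) and 0.93 ± 0.14 (adjusted p = 7.13e-06), while Plaur, the urokinase receptor gene, changed by -0.80 ± 0.10 (adjusted p = 6.59e-07).

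Markers of other cell types differed between the same groups. Of 10 astrocyte markers 8 were higher and 0 lower in untreated E4 than in untreated E3, and their summed level was 1838 to 3422 scaled TPM in E4 and 996 to 1256 in E3. Of 8 tested fibroblast and pericyte markers 0 were higher and 7 lower, with sums of 249 to 354 in E4 and 602 to 818 in E3. Of the 10 microglia markers 2 were higher and 0 lower, with sums of 7981 to 8829.5 in E4 and 5865 to 6783 in E3. The part of these cells in the immediate early genes was not tested.

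KO cells differed from WT cells in both directions. KO and WT mice came from different lines, so Apoe genotype and mouse line cannot be told apart in any comparison between them. In untreated KO cultures 3 members were higher and 6 lower than in WT, and Fosb did not pass the test. Most genes were called here (26.6% higher and 29.9% lower), so a call by itself says little about the members. Libraries did not overlap for 9 members, against 46.4% of tested genes and 56.5% called. The median log2 fold change was -0.59 over members and -0.03 over all tested genes.

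Jun and Dusp1 rose most in KO cells. Jun was at 171, 143, 141, 129 and 135 scaled TPM in untreated KO, against 83.2, 50.6, 36.6, 29.5 and 40.1 in untreated WT, a log2 fold change of 1.65 ± 0.25 (adjusted p = 5.61e-07). Dusp1 was at 748, 666, 664, 723 and 664 in KO and 257, 161, 133, 109.6 and 132 in WT, a log2 fold change of 2.18 ± 0.29 (adjusted p = 3.63e-08). All KO libraries exceeded all WT libraries in both genes, and WT replicate 1 was the highest WT library in each. Atf3 rose by less, at 207 to 251 in KO and 168 to 204 in WT, a log2 fold change of 0.31 ± 0.08 (adjusted p = 0.00087), a call lost with all 47 libraries unweighted (adjusted p = 0.052 in limma).

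The fall was largest in Ier2, Egr1, Egr2 and Nr4a1. Ier2 was at 139, 138, 151, 147 and 186 scaled TPM in untreated KO and 481, 501, 393, 392 and 398 in untreated WT, a log2 fold change of -1.50 ± 0.12 (adjusted p = 2.18e-13). Egr2 was at 5.88, 4.50, 5.59, 5.27 and 8.62 in KO and 18.3, 13.6, 13.5, 17.8 and 14.8 in WT, a log2 fold change of -1.27 ± 0.18 (adjusted p = 1.37e-07). In neither gene did the groups overlap. Egr1 was at 26.1, 31.9, 36.6, 34.8 and 50.5 in KO and 123, 95.7, 74.5, 71.4 and 75.8 in WT, a log2 fold change of -1.27 ± 0.26 (adjusted p = 6.75e-05). Nr4a1 was at 56.6, 54.0, 55.9, 49.6 and 53.2 in KO and 114, 109, 106, 141 and 124 in WT, a log2 fold change of -1.12 ± 0.16 (adjusted p = 8.96e-08). For Egr1 and Nr4a1, too, every KO library was below every WT library.

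Junb fell to 540.0, 553, 546, 534 and 515 scaled TPM in untreated KO, against 884, 873, 898, 957 and 920.4 in untreated WT, a log2 fold change of -0.75 ± 0.08 (adjusted p = 1.62e-10). Fos was at 973, 954, 970.4, 769 and 928 in KO and 1228, 1219, 1082, 1482 and 1187 in WT, a log2 fold change of -0.43 ± 0.11 (adjusted p = 0.00121). Fosb was at 3.68, 6.43, 5.80, 5.27 and 7.50 in KO and 5.86, 6.51, 7.40, 7.52 and 9.90 in WT, with overlapping libraries and a log2 fold change of -0.33 ± 0.18 (adjusted p = 0.121). Fibroblast and pericyte markers were lower in KO for 8 of 8 tested genes, with sums of 57.4 to 727 scaled TPM in KO and 967 to 1455 in WT. Astrocyte markers gave 1 higher and 3 lower of 10, and microglia markers 3 higher and 3 lower of 10. Their part in the result was not tested.

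After myelin, KO cells had 2 members higher and 7 lower than WT cells, with 29.4% of genes called higher, 25.5% lower and 54.8% in either direction. Libraries did not overlap for 8 members, as in 37.4% of tested genes. Fosb now differed, at 2.14, 2.19, 2.45, 2.82 and 2.19 scaled TPM in KO after myelin and 9.16, 6.59, 6.00, 3.94 and 6.65 in WT after myelin, a log2 fold change of -1.12 ± 0.18 (adjusted p = 2.36e-06) with no overlap. Jun was at 110.3, 116, 114, 94.3 and 123 in KO and 152, 35.5, 50.7, 106 and 169.9 in WT, a log2 fold change of 0.35 ± 0.25 (adjusted p = 0.246). Dusp1 was at 532, 585, 591, 520.0 and 582 in KO and 481, 135, 148, 407 and 777 in WT, a log2 fold change of 0.84 ± 0.29 (adjusted p = 0.0146). The Dusp1 call was lost without WT myelin replicate 2 or 3, at adjusted p of 0.103 and 0.0964 in limma. In both Jun and Dusp1 the narrow KO range lay inside the wide WT range. The other 7 members moved in the direction seen in untreated cells, from -1.58 ± 0.12 (adjusted p = 5.81e-14) in Ier2 to 0.63 ± 0.08 (adjusted p = 8.1e-09) in Atf3.

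The listed genes were counted for untreated KO against untreated WT cultures, beside the 56.5% of all tested genes called there. Of 25 further immediate early and AP-1 genes 7 were higher and 14 lower, with Ier3 at -2.53 ± 0.12 (adjusted p = 4.99e-19), Gadd45b at -1.98 ± 0.11 (adjusted p = 1.48e-17) and Cyr61 at -3.29 ± 0.27 (adjusted p = 2.18e-13). Of 15 feedback genes 6 were higher and 5 lower, among them Zfp36l2 at 1.67 ± 0.15 (adjusted p = 5.25e-12) and the MAP kinase phosphatase genes Dusp10 at -1.37 ± 0.14 (adjusted p = 1.03e-10) and Dusp6 at -1.14 ± 0.15 (adjusted p = 1.66e-08). Of 22 upstream genes 7 were higher and 3 lower, and the called genes with the lowest p were all kinases, Mapk14 (p38) at 1.34 ± 0.12 (adjusted p = 4.14e-12), Map2k2 at 2.02 ± 0.19 (adjusted p = 8.07e-12) and Mapk3 at 0.52 ± 0.06 (adjusted p = 3.11e-10). Of 12 receptor genes 5 were higher and 3 lower, with Trem2 at 0.99 ± 0.08 (adjusted p = 6.1e-13), Tyrobp at 0.67 ± 0.07 (adjusted p = 4.08e-10) and P2ry12 at -1.04 ± 0.23 (adjusted p = 0.00019). Of 16 AP-1 or EGR targets 3 were higher and 11 lower, with Cxcl2 at -2.43 ± 0.13 (adjusted p = 7.43e-18), Plaur at -1.71 ± 0.10 (adjusted p = 4.16e-17) and Timp1 at -3.79 ± 0.28 (adjusted p = 1.94e-14). The median over these 16 was -1.07.

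E4, E3 and KO cells were each also set against untreated WT, and these comparisons share the 5 WT libraries. The WT mice came from a line other than those of E4, E3 and KO, so genotype and line cannot be told apart here. E4 had 6 members higher and 2 lower, where 32.6% of genes were called higher, 31.5% lower and 64% in all. E3 had 3 members higher and 5 lower, where 29% of genes were called higher, 25.7% lower and 54.7% in all. Dusp1 had a log2 fold change of 2.21 ± 0.29 (adjusted p = 3.48e-08) in E4, 1.11 ± 0.31 (adjusted p = 0.00272) in E3 and 2.18 ± 0.29 in KO. Jun had 1.78 ± 0.25 (adjusted p = 1.62e-07) in E4 and 0.85 ± 0.27 (adjusted p = 0.00778) in E3, and Egr2 -1.36 ± 0.18 (adjusted p = 4.24e-08) in E4 and -1.59 ± 0.19 (adjusted p = 1.07e-08) in E3. For these 3 genes each of the 3 genotypes differed from WT in the same direction.

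Fos, Junb, Egr1 and Nr4a1 were different in this respect. Fos had a log2 fold change of 0.10 ± 0.11 (adjusted p = 0.421) in E4 and -0.78 ± 0.12 (adjusted p = 1.09e-06) in E3, against the same WT cells. Nr4a1 had -0.05 ± 0.16 (adjusted p = 0.797) in E4 and -1.21 ± 0.17 (adjusted p = 1.56e-07) in E3. Egr1 had 1.04 ± 0.26 (adjusted p = 0.000758) in E4 and -0.58 ± 0.28 (adjusted p = 0.0705) in E3, and Junb 0.20 ± 0.08 (adjusted p = 0.0292) in E4 and -0.72 ± 0.08 (adjusted p = 5.6e-09) in E3. The 4 estimates lay near or above 0 in E4 and below 0 in E3, where that of Egr1 did not pass the test. Ier2 fell in both, with -0.46 ± 0.12 (adjusted p = 0.00139) in E4 and -1.37 ± 0.13 (adjusted p = 2.37e-11) in E3. Fosb rose in both, with 1.08 ± 0.18 (adjusted p = 3.79e-06) in E4 and 0.52 ± 0.19 (adjusted p = 0.022) in E3. The Junb call in E4 was lost without untreated E4 replicate 2, 3 or 5 or WT replicate 1 or 2, and with trimmed-mean factors (adjusted p from 0.0534 to 0.118 in limma). With all 47 libraries unweighted the E4 calls of Junb and Ier2 (0.578 and 0.054) and the E3 call of Fosb (0.105) were lost. The Fosb call in E3 was lost without untreated E3 replicate 2 or 3 or WT replicate 1 (0.0604 to 0.11). Atf3 rose by 0.50 ± 0.08 (adjusted p = 9e-07) in E4 and had 0.06 ± 0.08 (adjusted p = 0.575) in E3. Astrocyte markers were higher than in WT for 9 of 10 genes in E4 and for 9 of 10 in E3. Fibroblast and pericyte sums were 249 to 354 scaled TPM in untreated E4 and 602 to 818 in untreated E3, against 967 to 1455 in untreated WT. Coding genes held 7.16% to 16.1% of the TPM in these E4 and 11.1% to 16.6% in these E3 libraries, against 20.5% to 27.3% in WT. The part of these cells and of the coding share was not tested.

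**Figure D3:**
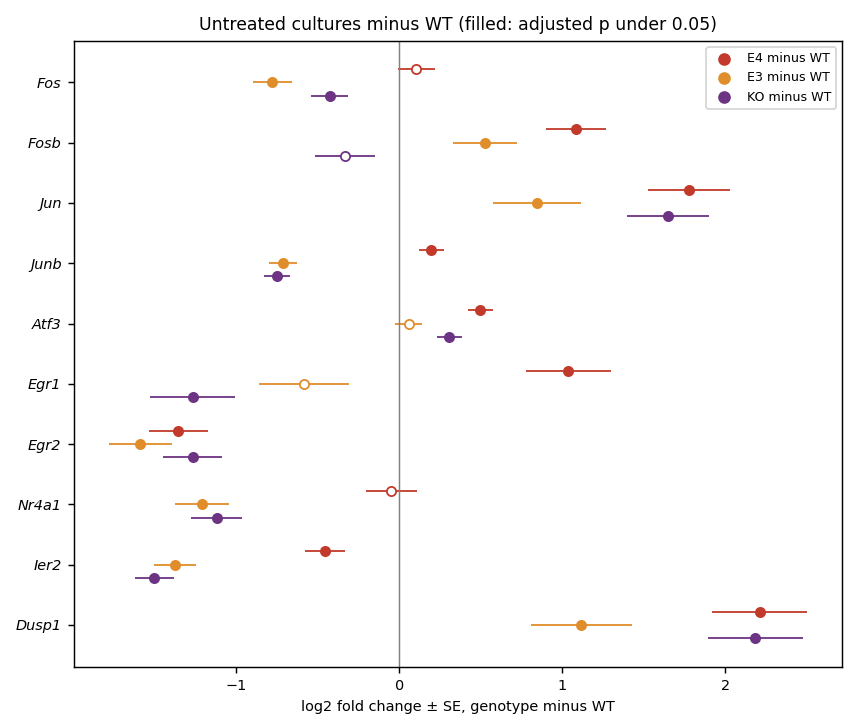
Log2 fold change with SE of each member in untreated E4, E3 and KO cultures, each minus the same untreated WT libraries. Filled symbols passed an adjusted p of 0.05 in limma. Jun and Dusp1 lie to the right and Egr2 and Ier2 to the left of 0 in all 3 genotypes, while Egr1 and Junb lie to the right in E4 and to the left in E3 and KO.

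Libraries collected 24 h after the start of the 3 h myelin treatment were set against untreated ones of the same genotype. In E4 cells 4 members fell and 0 rose, with 6.08% of genes called lower and 6.77% higher. The E4 groups overlapped in all 10 members; they lay apart in 9.8% of tested genes, and 12.9% were called. The log2 fold change was -0.53 ± 0.16 (adjusted p = 0.0209) in Nr4a1, -0.41 ± 0.12 (adjusted p = 0.0216) in Ier2, -0.36 ± 0.11 (adjusted p = 0.0279) in Fos and -0.27 ± 0.08 (adjusted p = 0.0212) in Junb. The values are those given above for E4 libraries with and without myelin. All 4 calls were lost without E4 myelin replicate 2, the lowest library of Fos, Junb and Nr4a1 after myelin, or without untreated E4 replicate 2 or 3, which stood among the highest (adjusted p from 0.0602 to 0.102 in limma). Fos also missed the threshold without the filter on low values (0.0561). With trimmed-mean factors Fos and Junb missed it (0.0582 and 0.0581), and the split of all calls was 1008 higher and 393 lower, where it was 712 and 639. Nr4a1 was also lost without E4 myelin replicate 3 (0.052) and Ier2 without replicate 5 (0.0743). The share of coding TPM was 18.6% ± 3.39 in E4 after myelin and 12.1% ± 3.24 in untreated E4 (SD, n = 5 each), and its part was not tested.

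In E3 cells 0 members were called in limma, with 2.99% of genes called higher, 2.61% lower and 5.59% in all. The lowest adjusted p-values were those of Dusp1 at 1.0 ± 0.33 (adjusted p = 0.0572), Ier2 at -0.41 ± 0.14 (adjusted p = 0.0616) and Nr4a1 at -0.51 ± 0.18 (adjusted p = 0.0722). Jun had 0.69 ± 0.28 (adjusted p = 0.122). The libraries after myelin lay above the untreated ones for Jun and Dusp1 and below them for Fosb, Nr4a1 and Ier2, 5 of 10 members, as in 15.5% of tested genes. At an unadjusted p under 0.05 there were 6 members and 2580 genes, and the weighted fit of all 47 libraries called 4 members.

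In WT cells Jun and Dusp1 were called higher and Atf3 lower, with 4.54% of genes called higher, 0.438% lower and 4.98% in all. Jun was at 152, 35.5, 50.7, 106 and 169.9 scaled TPM after myelin, against 83.2, 50.6, 36.6, 29.5 and 40.1 in untreated WT, a log2 fold change of 0.94 ± 0.25 (adjusted p = 0.021). Dusp1 had 1.05 ± 0.29 (adjusted p = 0.0264), at 481, 135, 148, 407 and 777 after myelin and 257, 161, 133, 109.6 and 132 in untreated WT. In both genes WT myelin replicates 1, 4 and 5 were high and replicates 2 and 3 lay within the untreated range. Egr1 was high in the same 3 libraries, at 192, 58.1, 60.7, 145 and 240.3 after myelin and 123, 95.7, 74.5, 71.4 and 75.8 untreated, with a log2 fold change of 0.46 ± 0.26 (adjusted p = 0.351). The weighted fit of all 47 libraries called Egr1, at 0.75 ± 0.21 (adjusted p = 0.0143 in limma). Leaving out WT myelin replicate 1, 4 or 5 or untreated WT replicate 3, 4 or 5 ended the calls of Jun and Dusp1, at adjusted p from 0.0644 to 0.132 in limma, as did testing without the filter on low values (0.0503 and 0.0631).

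Atf3 was at 153, 167, 126, 145 and 164 scaled TPM in WT after myelin and 168, 186, 176, 204 and 200.2 in untreated WT, with no overlap and a log2 fold change of -0.31 ± 0.08 (adjusted p = 0.0134). Its call was lost without WT myelin replicate 3 or untreated WT replicate 4 or 5 (adjusted p from 0.0543 to 0.0759 in limma). In KO cells Fosb alone was called, with 0.894% of genes called higher, 1.09% lower and 1.99% in all. It was at 2.14, 2.19, 2.45, 2.82 and 2.19 in KO after myelin, against 3.68, 6.43, 5.80, 5.27 and 7.50 in untreated KO. Every library after myelin lay below every untreated one, and the log2 fold change was -0.98 ± 0.18 (adjusted p = 0.00135). All Fosb values in KO after myelin lay under the filter level of 5 scaled TPM, and the read depth is unknown. This call held with each library left out in turn. It was lost with all 47 libraries unweighted (adjusted p = 0.0942 in limma), as were those in E4 and WT. Jun, Junb, Nr4a1 and Dusp1 also lay lower without overlap, 5 members with Fosb, where 5.59% of tested genes did not overlap, in either direction. Astrocyte marker sums were 50.1 to 59.9 in KO after myelin and 77.1 to 114 in untreated KO, and microglia marker sums 9658 to 10682 after myelin and 8369.9 to 9055 untreated, both without overlap, and their part was not tested. Fos, Nr4a1 and Junb in KO had -0.33 ± 0.11 (adjusted p = 0.138), -0.42 ± 0.16 (adjusted p = 0.181) and -0.19 ± 0.08 (adjusted p = 0.247).

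Het cells were compared on 2 libraries after myelin and 3 untreated, and 0 members were called in limma, where 0.0285% of genes were called higher, 0.171% lower and 0.2% in all. At an unadjusted p under 0.05 there were 4 members and 1144 genes. Fos was at 750.3 and 723 scaled TPM after myelin and 1127, 935 and 1148 untreated, a log2 fold change of -0.53 ± 0.16 (adjusted p = 0.166). Nr4a1 was at 76.4 and 91.2 after myelin and 161, 89.7 and 186 untreated, a log2 fold change of -0.73 ± 0.23 (adjusted p = 0.187). All 10 estimates were below 0, with a median of -0.38, where the median over all tested genes was -0.10. Without overlap, 5 members lay below and 0 above, as did 1712 and 527 of 10510 tested genes. Under the alternatives the estimates of Atf3, Egr1 and Egr2 reached up to 0.20, 0.06 and 0.05. The left-out libraries were at 554 and 976 for Fos after myelin and 849.7 and 725 untreated. The fit of all 47 libraries with weights called Fos, Junb and Nr4a1 lower.

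Across genotypes, Fos, Fosb, Junb, Egr2, Nr4a1 and Ier2 had estimates below 0 in each of the 5 myelin comparisons, with that of Fos in E3 close to 0, and only some of these passed the test. Differences between the responses were tested as interactions. For the E4 against the WT response limma called 0 members, against 1.92% of genes higher, 1.59% lower and 3.51% in all. At an unadjusted p under 0.05 there were 2 members and 2420 of 10510 genes. For the KO against the WT response limma called 0 members, against 0.4% higher, 0.99% lower and 1.39% in all. Unadjusted, there were 4 members and 2113 genes. With library weights on all 47 libraries each of these contrasts called 4 members, and more of all tested genes were called too, as given further on. The nearest were Jun at -1.30 ± 0.36 (adjusted p = 0.0529) and Dusp1 at -1.35 ± 0.41 (adjusted p = 0.0733) in KO against WT, and Atf3 at 0.37 ± 0.11 (adjusted p = 0.0506) in E4 against WT. These comparisons share the WT libraries. With library factors from a trimmed mean, Jun and Dusp1 in KO against WT passed at adjusted p of 0.0299 and 0.0464. Of 49 alternatives, Atf3 in E4 against WT passed in 15, at a lowest adjusted p of 0.021 in limma. Jun and Dusp1 in KO against WT passed in 7 and 5.

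**Figure D4:**
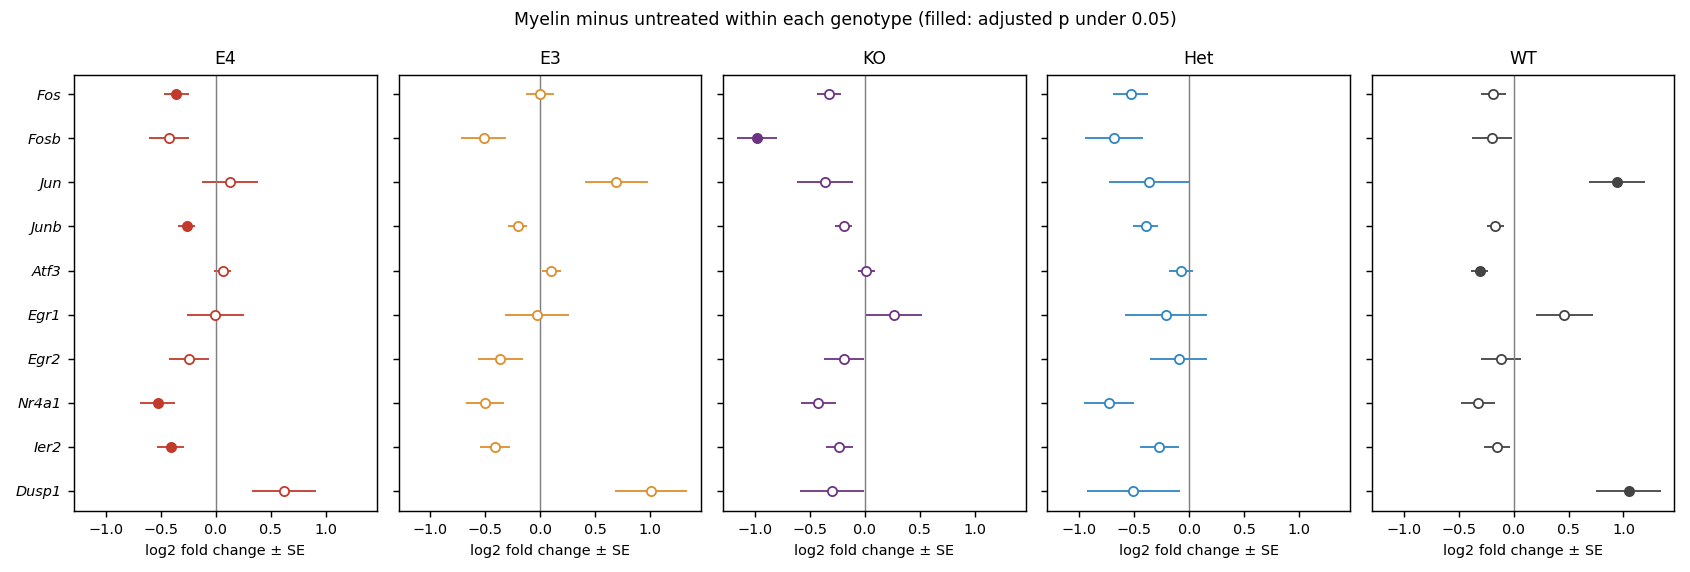
Log2 fold change with SE of each member, myelin minus untreated, in E4, E3, KO, Het and WT cultures. Filled symbols passed an adjusted p of 0.05 in limma. Jun and Dusp1 lie to the right of 0 in E4, E3 and WT and to the left in KO and Het, and Nr4a1 lies to the left in all 5.

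The further lists were counted for myelin in E4 cells as well, where 12.9% of all tested genes were called. Of 25 further immediate early and AP-1 genes 3 were higher and 3 lower, with Ier3 at -0.85 ± 0.12 (adjusted p = 8.18e-06), Fosl2 at -0.47 ± 0.10 (adjusted p = 0.00271) and Btg2 at -0.50 ± 0.13 (adjusted p = 0.00911). Of 15 feedback genes 1 was higher and 2 lower, with Zfp36l1 at -0.66 ± 0.11 (adjusted p = 5.55e-05). Of 22 upstream genes 2 were higher and 0 lower, among them Mkl2, a coactivator of serum response factor, at 0.36 ± 0.12 (adjusted p = 0.0477). Of 12 receptor genes Tlr2 alone was called, at -0.59 ± 0.15 (adjusted p = 0.00941). Of 16 AP-1 or EGR targets 2 were higher and 4 lower, among them the cytokine genes Il1b at -1.32 ± 0.19 (adjusted p = 6.87e-06), Ccl2 at -1.19 ± 0.19 (adjusted p = 4.92e-05) and Cxcl2 at -0.76 ± 0.13 (adjusted p = 0.00014). Of 10 astrocyte markers 0 were called in limma, and of 10 microglia markers 1 was higher and 3 lower, whose part was not tested.

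Over the 43 libraries the members formed patterns, given here as Pearson correlations of log2 levels without a test, since libraries share genotype, treatment and coding share. Nr4a1 and Ier2 correlated at 0.925, Junb and Nr4a1 at 0.899 and Fos and Junb at 0.874. Jun and Dusp1 correlated at 0.932, yet Jun correlated with Junb at -0.00167 and with Fos at -0.0215. With group means removed, Jun and Dusp1 still correlated at 0.875, Jun and Egr1 at 0.845 and Egr1 and Dusp1 at 0.821. Nr4a1 and Ier2 were then at 0.617 and Fos and Nr4a1 at 0.751. These values pool all groups, and Jun, Dusp1 and Egr1 each had their widest spread relative to the mean in WT after myelin. There they were high or low in the same libraries, but this did not hold in every group. The untreated KO library with the highest Jun (171 scaled TPM) had the lowest Egr1 (26.1). The E3 library with the highest Jun after myelin (146) had the lowest Dusp1 (476).

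**Figure D5:**
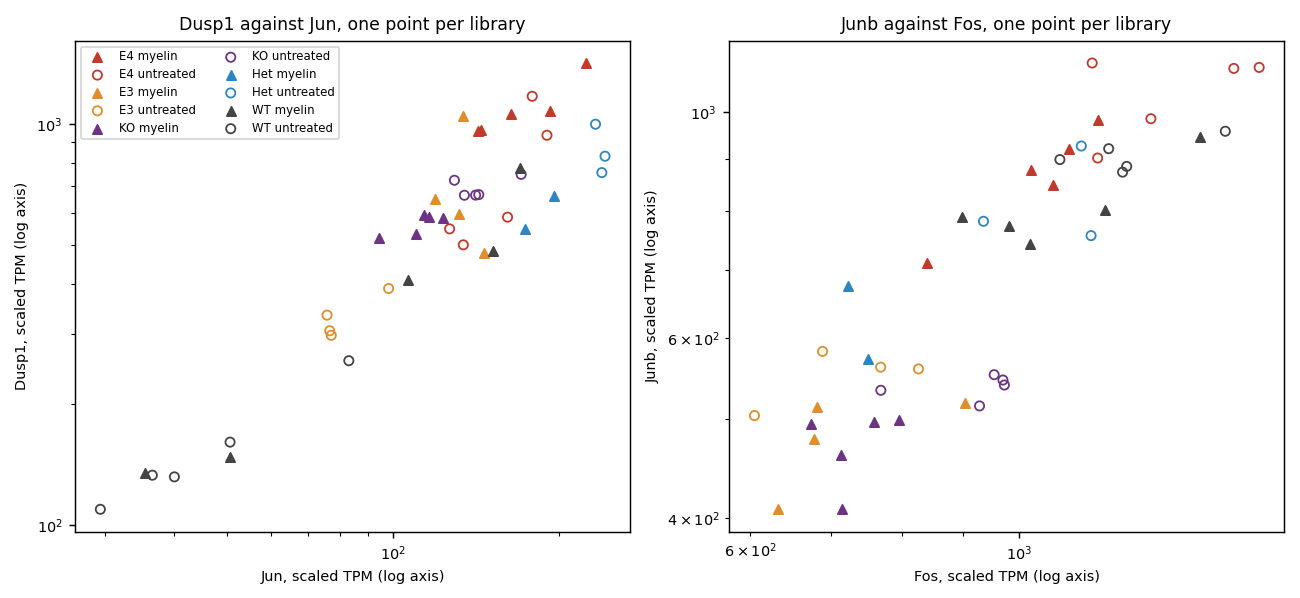
Scaled TPM (log axes) of Dusp1 against Jun and of Junb against Fos, with 1 point per fitted library, colours for genotypes, filled triangles for myelin and open circles for untreated cultures. Dusp1 rises with Jun from untreated WT at the lower left to E4 and Het at the upper right. After myelin, Het libraries lie below E4 libraries in Dusp1 at similar Jun. In the other plot untreated WT libraries lie at the upper right beside E4.

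The balance between members differed by genotype, described here by ratios of scaled TPM chosen after the values were seen and given without a test. Jun was at 0.153 ± 0.0282 of the Junb level in untreated E4 (SD, n = 5), 0.150 ± 0.0301 in E3 (n = 4), 0.267 ± 0.0283 in KO (n = 5) and 0.292 ± 0.0262 in Het (n = 3), against 0.0534 ± 0.0247 in WT (n = 5). The WT libraries were the lowest, and the E4 and E3 libraries overlapped. Dusp1 was at 0.582 ± 0.286 of the Fos level in untreated E4, 0.471 ± 0.126 in E3, 0.761 ± 0.105 in KO and 0.805 ± 0.0661 in Het, against 0.13 ± 0.0495 in WT. After myelin the Dusp1 to Fos ratio was 1.06 ± 0.121 in E4, 0.991 ± 0.416 in E3, 0.771 ± 0.0582 in KO and 0.342 ± 0.213 in WT.

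The tested genes most like the mean of the members over the 43 libraries, by Pearson r of log2 levels, were Nfkbiz at 0.904, Nfkbid at 0.855, Tnfaip3 at 0.855, Tnf at 0.855 and Ccrl2 at 0.847. Nfkbiz, Nfkbid and Tnfaip3 belong to NF-κB signalling, Tnf is an inflammatory cytokine, and Ccrl2 an atypical chemokine receptor. For Fos they were Pde4b at 0.854, Nfkbid at 0.846 and Btg2 at 0.812, and for Junb Tnfsf9 at 0.919, Ccrl2 at 0.918 and Nfkbiz at 0.897. For Nr4a1 they were Btg2 at 0.938, Pde4b at 0.916 and Il1b at 0.904, and for Ier2 Btg2 at 0.940, Il1b at 0.875 and Pde4b at 0.847. For Egr1 they were Tnf at 0.909, Tnfaip3 at 0.888 and Nfkbiz at 0.882, and for Egr2 C5ar1 at 0.891, Ccr1 at 0.891 and Gpr35 at 0.880. Fosb was most like Gadd45g at 0.918, Id3 at 0.886 and Cxcl1 at 0.873, and Atf3 most like Camk1 at 0.843, Rasgef1b at 0.832 and Id2 at 0.825. For Jun they were Rnaset2a at 0.908, Marc2 at 0.899 and Imp3 at 0.898, and for Dusp1 Pim3 at 0.950, Rab6a at 0.949 and Mipep at 0.944. None of the genes nearest to Jun or Dusp1 was among those nearest to Fos, Junb, Nr4a1 or Ier2. This adds nothing to the correlations among members, since Jun and Dusp1 correlated with those genes at only -0.267 to 0.015. The genes nearest to a member were picked as the highest of 10510, so the size of these values is no evidence of a link.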

How the data were processed

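Polyadenylated RNA of cultured microglia was amplified with a SMARTer kit, per the labels' protocols. The authors deposited TPM per gene in a common table, and its 47 columns were matched to samples by title (0 columns unmatched). Salmon 0.13.1, limma 3.40.6 and mm10 are named in the submitters' processing notes without a role. Annotation release, strand setting and depth are not stated there, so no counting interval is printed. Positions are from GENCODE M21 on mm10.

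TPM were rescaled to 1000000 over nuclear protein-coding genes. Libraries under 6% coding TPM (4, all Het) were left out. A gene was tested if 4 of the 43 libraries reached 5 scaled TPM, which left 10510. A group-means model was fitted with limma 3.58.1 (R 4.3.3), with a trend and no weights, on log2(scaled TPM + 1), a scale that understates changes of low genes. Tests of the 14 comparisons were two-sided. P-values were adjusted by Benjamini-Hochberg, and 0.05 was the threshold. The fit was run on simulated data with independent noise and the same spread of a gene in every group. That run cannot show how the fit behaves under the unequal spread of the real groups. Python 3.11.15 with pandas 2.3.3, scipy 1.17.1 and matplotlib 3.10.9 served for the rest.

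All members are named whatever their values. Of each list, counts are given with at most 3 called genes of lowest p and at most 2 uncalled genes of highest level. A single gene that the rule names in the upstream list is left out and not reported here. The members, the lists, the filter on libraries and the tests were chosen with earlier results of these data known. Alternatives were library weights on all 47 libraries, no weights on all 47, trimmed-mean factors, a pseudocount of 0.25, no filter on low values, a replicate block and leaving out each library in turn.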

Additional observations from a re-analysis of the deposited data

Results flagged for a closer look

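Of 100 sets of replicates (10 members in 10 groups, with all 47 libraries), 10 held a library far from the others by Dixon's criterion, which chance alone reaches in about 1 in 20 sets. In 6 of them the library was one of the Het libraries left out of the fits for low coding content. Het myelin replicate 1 was lowest of 4 for Jun, Junb and Ier2, at 66.2, 149.8 and 159 scaled TPM, where the next libraries were at 173, 546 and 374. Untreated Het replicate 5, with coding genes at 0.468% of its TPM, was lowest of 5 for the same genes, at 159, 153 and 180.4, where the next libraries were at 227, 599 and 395.

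The other 4 concern libraries that were fitted. Untreated KO replicate 4 had 769 scaled TPM of Fos, where the other KO libraries had 928 to 973. Untreated E3 replicate 1 had 98.2 of Jun, where the others had 75.9 to 77.3, and without it the log2 fold change of Jun in E4 against E3 kept its call. KO myelin replicate 3 had 218 of Atf3, where the others had 234 to 241, and KO myelin replicate 5 had 8.14 of Egr2, where the others had 4.06 to 4.91.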

How the results depend on the processing

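No estimate changed sign while called. For E4 against E3 in untreated cultures, 8 or 9 members were called higher whichever library was left out. The choice of libraries and weights moved the counts most, and the counts with weights change both at once. With all 47 libraries and library weights, the members called after myelin were 7 in E4, 4 in E3, 3 in KO and 3 in Het, and 4 in each of the E4 and KO against WT response contrasts. In WT, Egr1 was called beside Jun, Dusp1 and Atf3. Genes called were then 2673, 1629, 957, 518 and 1519 for myelin in E4, E3, WT, KO and Het, 2815 and 2783 for E4 against E3 without and with myelin, and 40, 967 and 1006 for the E4 against E3, E4 against WT and KO against WT responses. With all 47 and no weights, 0 members were called after myelin in E4, WT and KO, and 4 for E4 against E3 after myelin. Genes called were 302, 11, 222, 12 and 97 for myelin in E4, E3, WT, KO and Het, 680 and 456 for E4 against E3 without and with myelin, and 6 and 1 for the E4 and KO against WT responses. Trimmed-mean factors gave 2 members for myelin in E4, 1 in E3 and 2 in the KO against WT response, with 5 genes for myelin in Het and 292 in the KO against WT response. They moved the split of calls after myelin to 1008 higher and 393 lower in E4, where it was 712 and 639, and to 526 and 146 in E3, where it was 314 and 274. In the KO against WT response it was 50 and 242 in place of 42 and 104. A pseudocount of 0.25 called 37 genes for myelin in Het. Without a filter on low values, 1 member was called for myelin in WT, and 223, 212 and 13 genes for myelin in Het and the E4 and KO against WT responses. Replicate numbers were not treated as pairs in the main fit, since not every correlation of same-numbered deviations exceeded 0.1. These correlations went from -0.103 to 0.484 for myelin in E4. With so few libraries per group this check cannot exclude pairing. With a replicate block, 1 member each and 832 and 246 genes were called in the E4 and KO against WT responses; Fosb for E4 against E3 in untreated cultures (adjusted p = 0.0769 in limma) and Fos for myelin in E4 (0.0534) were then not called, and a Het block could not be fitted. Leaving out each library in turn, the called members and genes ranged over 0 to 4 and 821 to 1614 for myelin in E4, 0 to 1 and 128 to 790 in E3, 0 to 3 and 153 to 874 in WT, 0 to 1 and 0 to 295 in Het, 0 to 2 and 164 to 659 in the E4 against WT and 0 to 3 and 14 to 597 in the KO against WT response. Genes alone moved for myelin in KO (113 to 264) and E4 against E3 after myelin (788 to 1330). The cause was not tested for any of these. Depth is unknown, and Egr2 and Fosb lie near the filter.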
